A study of Mus musculus with 9 samples.

Results

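Voltage-gated calcium channel subunits are described here through 10 genes, taken by symbol from the 48526 Ensembl gene identifiers of the deposited table: Cacna1a, Cacna1b, Cacna1c, Cacna1d, Cacna1e, Cacna1g, Cacna1h, Cacna1i, Cacna2d1 and Cacna2d3. All 10 were found, each under 1 identifier, and all 10 had a mean of at least 10 normalized counts, the minimum for the test. The series holds 9 RNA-seq libraries from the medial ganglionic eminence (MGE) of C57BL/6 mice at embryonic day 14.5; this ventral zone of the embryonic forebrain gives rise to many interneurons of the cortex. The 4 control libraries carried Nkx2.1-cre and Rosa26-YFP; control replicate 4 also carried 1 floxed Ctnnb1 allele (Ctnnb1fl/wt). The 5 knockout libraries carried Nkx2.1-cre, Ctnnb1fl/fl and Rosa26-YFP. The Cre and the reporter were thus shared by both groups, and only cells with a history of Nkx2.1-driven Cre were targeted. Sorting of cells is not stated, nor is it said that the libraries of a group came from different embryos, so a p-value here reflects library-to-library spread, part of which may be technical.

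A voltage-gated calcium channel opens when the membrane is depolarized and lets calcium into the cell. Its pore is a single large alpha1 protein, which sets the channel type, and most types need an intracellular beta subunit and an extracellular alpha2delta subunit to reach the membrane in number. In embryonic forebrain, calcium entry accompanies neuronal differentiation and interneuron migration; in mature neurons the P/Q-type and N-type channels trigger transmitter release, L-type channels signal to the nucleus, and T-type channels open near rest and shape firing.

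Estimated library totals were 5120585 to 5569444 reads, with 20274 to 22903 genes above 0, so depth was alike in the groups. Ctnnb1, the targeted gene, was at 9841, 9960, 9967 and 9545 normalized counts in control replicates 1 to 4 and at 7103, 7661, 7133, 6572 and 5477 in knockout replicates 1 to 5. Each knockout library was below each control (exact two-sided permutation p = 0.00794, the smallest that this design allows), and the knockout mean was 69.1% of the control mean. The MGE markers Nkx2-1, Lhx6, Lhx8, Dlx1, Dlx2, Dlx5, Gad1 and Gad2 were present in all 9 libraries. Control replicate 1 stood apart. Its 8 cortical markers summed to 2320 normalized counts, while controls 2 to 4 had 71.7 to 193 and knockouts 146 to 475. Its 5 choroid plexus markers summed to 2928, while those libraries had 162 to 361 and 151 to 719. Ttr gave 2691 of its sum. Ttr and Folr1 were highest in control replicate 1, but Clic6 and Otx2 were highest in knockout replicate 4, the library with 719. They were at 83.2 and 410 there and at 62.7 and 151 in control replicate 1. No marker of either list was at 0 in every library.

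Most pore-forming genes were higher in knockout. Of the 10 members, 7 rose, 0 fell and 3 did not pass the test (limma, adjusted p under 0.05; at an unadjusted p under 0.05 the counts were 9 and 0). Over all 13780 genes tested, 17.2% rose and 17.3% fell. At an unadjusted p under 0.05 (limma), 3014 of these 13780 genes were higher and 3143 lower. The members' median log2 fold change (knockout minus control) was 1.08, against -0.01 over all genes tested. After a correction for exonic length and GC content these medians were 0.88 and -0.04. The 7 that rose were all alpha1 genes: Cacna1a, Cacna1b, Cacna1c, Cacna1d, Cacna1g, Cacna1h and Cacna1i. The alpha1 gene Cacna1e and both alpha2delta members, Cacna2d1 and Cacna2d3, did not pass. For 5 members, Cacna1a, Cacna1b, Cacna1c, Cacna1h and Cacna1i, every knockout library lay above every control, which held for 14.5% of all genes tested; 0 members lay wholly below, against 14.6%. Cacna1i, at a control mean of 5.01, reached the minimum level of 10 only through its knockout mean of 27.7. Its place in these counts and in the median depends on that. Without it, the members with no overlap were Cacna1a, Cacna1b, Cacna1c and Cacna1h. In bulk samples, more cells of a type and more RNA per cell cannot be told apart.

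**Figure D1:**
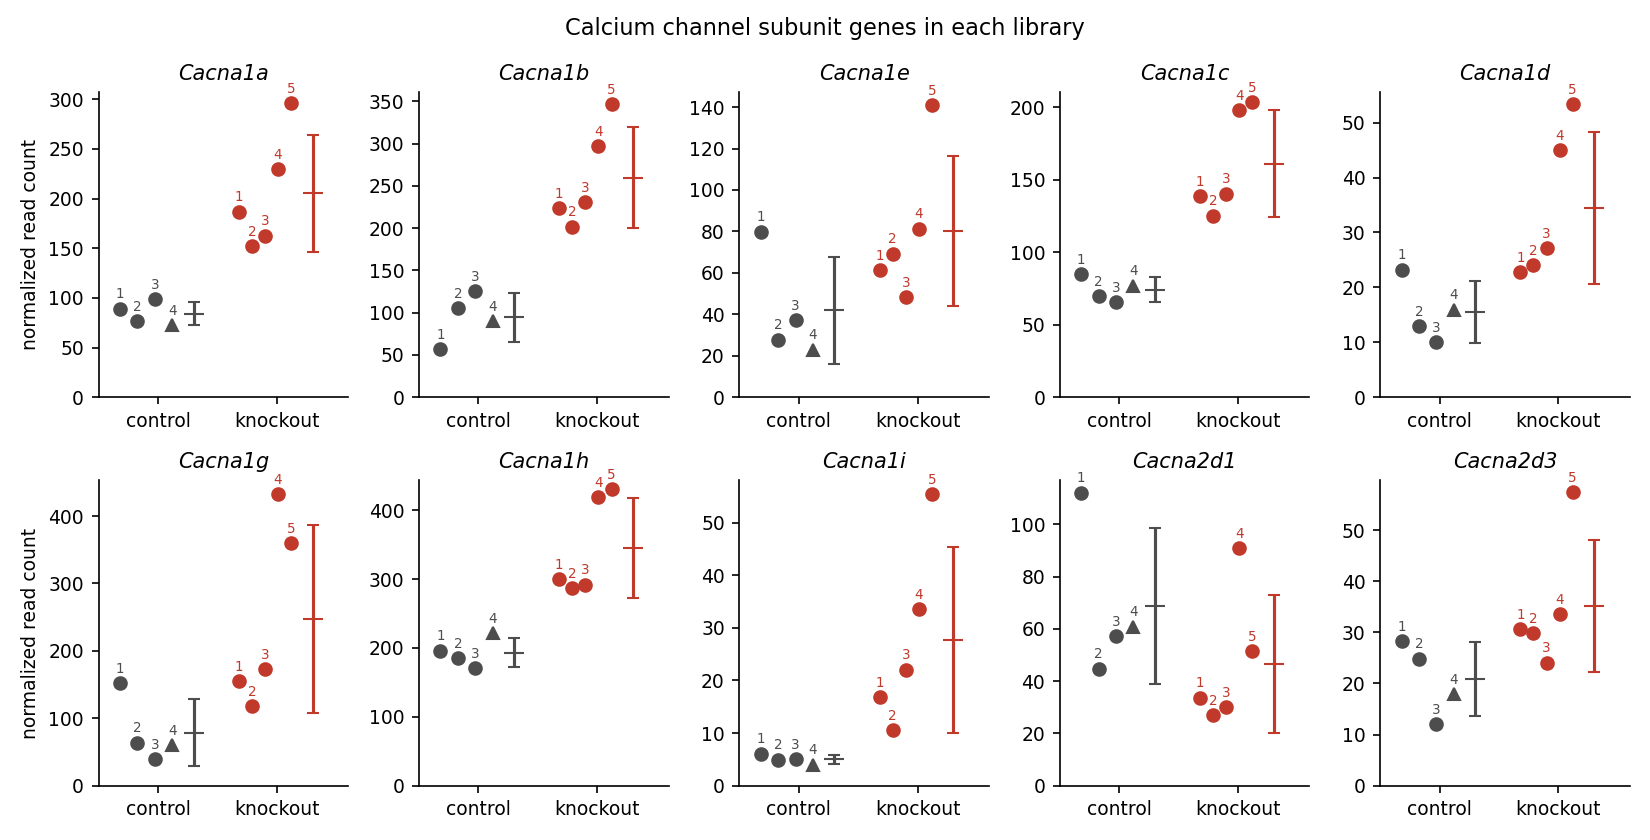
Normalized read count (vertical axis, from 0) of the 10 members in each library, numbered by replicate; the triangle is control replicate 4 with 1 floxed allele, and the bars beside the points are the mean and SD of each group. The groups separate for Cacna1a, Cacna1b, Cacna1c, Cacna1h and Cacna1i, and control replicate 1 lies highest among controls for Cacna1e, Cacna1g and Cacna2d1.

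The members are long genes. Their loci span 59.5 to 817 kb with a median of 346 kb, against a median of 21.6 kb over all genes tested, and their merged exons span 8.72 to 25.2 kb against a median of 4.36 kb. RefSeq promoter sequences (GRCm38.p6, the build of mm10) were at hand for 7 of the 10 members: Cacna1b, Cacna1c, Cacna1d, Cacna1e, Cacna1i, Cacna2d1 and Cacna2d3. Where a gene had several entries, the one nearest its annotated 5′ end was read. The only entry for Cacna1e (154725921 to 154726170, minus strand) lies inside its locus, far from the annotated 5′ end at 154884501. The 250 bases before the start were searched on both strands for CTTTGAA and CTTTGAT (cores bound by the TCF/LEF partners of beta-catenin), CAGCTG and CAGATG (E-boxes, bound by bHLH factors), GGGCGG (GC box), TGACGTCA (cyclic AMP response element) and TTCAGCACC (a part of the element bound by the neuronal repressor REST). The TCF/LEF core ending in GAA stood in 4.45% of 32841 promoters of the same length and in 1 of the 7 members, Cacna1i. The core ending in GAT stood in 3.21% and in 0 members. Of the E-boxes, the form with a central GC stood in 13.0% of promoters and in 2 members, Cacna1b and Cacna2d3, and the form with a central GA in 14.4% and in 0 members. The GC box stood in 32.7% and in 3 members, Cacna1b, Cacna2d1 and Cacna2d3. The cyclic AMP response element and the REST part stood in 1.55% and 0.301% of promoters and in 0 members. A match is a description of the letters, not evidence of binding.

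Promoters of 3 members are shown because their genes differed most in response: Cacna1i had the largest rise, Cacna1b had the next largest among members whose groups did not overlap, and Cacna2d1 was the member that did not rise and had a lower mean. Capitals mark matches to the motifs above, on either strand.
Cacna1i (chr15:80286988-80287237, plus strand): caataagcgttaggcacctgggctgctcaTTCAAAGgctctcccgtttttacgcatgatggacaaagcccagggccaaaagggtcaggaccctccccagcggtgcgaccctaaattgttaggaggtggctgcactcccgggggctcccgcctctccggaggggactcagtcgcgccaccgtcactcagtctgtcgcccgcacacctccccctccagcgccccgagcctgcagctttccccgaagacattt
Cacna1b (chr2:24763153-24763402, minus strand): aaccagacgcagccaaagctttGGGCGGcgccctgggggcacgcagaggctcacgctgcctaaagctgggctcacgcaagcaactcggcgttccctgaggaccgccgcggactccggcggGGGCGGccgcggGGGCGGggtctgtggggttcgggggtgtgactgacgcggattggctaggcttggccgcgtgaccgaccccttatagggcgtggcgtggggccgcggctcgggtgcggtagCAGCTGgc
Cacna2d1 (chr5:15934441-15934690, plus strand): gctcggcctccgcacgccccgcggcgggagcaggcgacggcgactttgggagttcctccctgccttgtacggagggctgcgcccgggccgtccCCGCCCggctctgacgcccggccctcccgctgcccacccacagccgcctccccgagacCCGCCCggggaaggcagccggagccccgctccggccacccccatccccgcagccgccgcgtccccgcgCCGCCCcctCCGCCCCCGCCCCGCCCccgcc
The Cacna1i window had 62.4% G and C, and the single TTCAAAG in capitals is CTTTGAA read on the other strand. The Cacna1b window had 72.0% G and C with 3 GC boxes and 1 E-box, and that of Cacna2d1 had 82.4% with 6 GC boxes. GC boxes thus stood in the promoter of a gene that rose and of one that did not. The median over all promoters was 52.4% G and C.

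The presynaptic channel genes come first. Cacna1a (ENSMUSG00000034656, chromosome 8, 84388440 to 84640246), the pore of the P/Q-type channel that drives transmitter release at most central synapses, was at 88.9, 76.5, 98.5 and 72.7 normalized counts in control replicates 1 to 4 and at 187, 152, 162 and 230 in knockout replicates 1 to 4, with 296 in replicate 5. The lowest knockout was well above the highest control. The means were 84.2 ± 11.8 (SD, n = 4) and 205 ± 58.9 (SD, n = 5), a log2 fold change of 1.24 (SE 0.180, limma adjusted p = 0.000268), or 2.37-fold.

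Cacna1b (ENSMUSG00000004113, chromosome 2, 24603887 to 24763152), the pore of the N-type channel, which also serves release and is found in migrating neurons, stood at 56.6, 105, 125.6 and 89.7 in the controls and at 224, 202, 231, 297 and 347 in the knockouts. It was lowest in control replicate 1, the library in which most other members were at their highest control level. The log2 fold change was 1.48 (SE 0.221, limma adjusted p = 0.000504), or 2.79-fold.

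Cacna1e (ENSMUSG00000004110, chromosome 1, 154390731 to 154884501), the pore of the R-type channel, was at 79.8 in control replicate 1 and at 27.8, 37.2 and 22.9 in the other controls, and at 61.3, 69.2, 48.1, 81.3 and 141 in the knockouts. Each knockout was above controls 2, 3 and 4, and control replicate 1 lay within the knockout range. The log2 change between groups of 0.99 (SE 0.375, limma adjusted p = 0.0621) did not pass, with a 95% interval of 0.16 to 1.82. Without control replicate 1 it was 1.35 (limma adjusted p = 0.00578), and without knockout replicate 3 it was 1.15 (0.0436); over all alternatives the adjusted p ran from 7.45e-05 to 0.184. That control is the library with the high sums of cortical and choroid plexus markers, whose part in its Cacna1e level was not tested.

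Both L-type genes rose. Cacna1c (ENSMUSG00000051331, chromosome 6, 118587240 to 119196418), the main L-type pore of brain and heart, stood at 84.9, 69.5, 65.3 and 76.7 normalized counts in the controls and at 138, 125, 140, 198 and 204 in the knockouts. The control libraries lay close together and all knockouts were above them. The log2 fold change was 1.09 (SE 0.162, limma adjusted p = 0.000295), or 2.13-fold.

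Cacna1d (ENSMUSG00000015968, chromosome 14, 30039939 to 30491455), an L-type pore that opens at lower voltage, was at 23.2, 12.9, 10.05 and 15.9 in the controls and at 22.7, 24.0, 27.1, 45.0 and 53.4 in the knockouts. The groups touched through control replicate 1 and knockout replicate 1 only. Its log2 fold change was 1.08 (SE 0.306, limma adjusted p = 0.0141), or 2.11-fold, from a mean of 15.5 ± 5.68 (SD, n = 4) to 34.4 ± 13.9 (SD, n = 5).

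All 3 T-type genes rose, with the smallest and the 2 largest log2 fold changes among the 7 called members. Cacna1h (ENSMUSG00000024112, chromosome 17, 25374285 to 25433783), a T-type pore, was at 196, 185, 171 and 221 normalized counts in the controls and at 300, 287, 292, 419 and 430 in the knockouts. The groups did not overlap, and the log2 fold change was 0.82 (SE 0.140, limma adjusted p = 0.000682), or 1.76-fold, the smallest of the 7. After a correction for exonic length and GC content it was 0.52 (limma adjusted p = 0.00412), in a range of 1.44e-08 to 0.00579 over all alternatives.

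Cacna1i (ENSMUSG00000022416, chromosome 15, 80287238 to 80398279), a T-type pore found mainly in neurons, was at 6.06, 4.97, 5.02 and 3.99 in the controls, which is a few reads per library, and at 16.8, 10.6, 22.1, 33.5 and 55.4 in the knockouts. Each knockout was above each control, and knockout replicate 5 was far above knockout replicate 2. Its log2 fold change was 2.05 (SE 0.401, limma adjusted p = 0.00152), the largest of the members; on the log2(normalized count + 1) scale it understates the change of so low a gene. Its control mean of 5.01 is under the minimum level of 10, so it was tested only through its knockout level, and its call and rank depend on that; of the other 9 members, 6 rose. With a pseudocount of 8 the log2 fold change was 1.32, smaller than those of Cacna1g (1.55) and Cacna1b (1.41) at that setting.

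Cacna1g (ENSMUSG00000020866, chromosome 11, 94408391 to 94474198), a T-type pore of bursting neurons, was at 152 in control replicate 1 and at 63.6, 39.2 and 59.8 in the other controls, and at 155, 118, 173, 432 and 360 in the knockouts. Knockout replicates 4 and 5 were far above the rest, while knockout replicate 2 was below control replicate 1. The fitted log2 fold change was 1.65 (SE 0.511, limma adjusted p = 0.0390), or 3.13-fold. Of the 7 calls it was the only one lost under any alternative run: leaving out control replicate 2, 3 or 4 gave limma adjusted p = 0.0830, 0.0925 and 0.100, and leaving out knockout replicate 3, 4 or 5 gave 0.0533, 0.0578 and 0.0907, with log2 fold changes of 1.38 to 1.73 in these 6 fits. Over all alternatives the adjusted p ran from 0.0127 to 0.160.

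Neither alpha2delta member passed the test. Cacna2d1 (ENSMUSG00000040118, chromosome 5, 15934691 to 16374511), an alpha2delta subunit that carries channels to the membrane and binds gabapentin, was at 112, 44.7, 57.3 and 60.8 in the controls and at 33.6, 26.9, 30.1, 90.9 and 51.4 in the knockouts. Knockout replicates 1, 2 and 3 were below every control, knockout replicate 5 lay within the controls and knockout replicate 4 was above 3 of them. The log2 fold change was -0.62 (SE 0.359, limma adjusted p = 0.207), with a 95% interval of -1.40 to 0.17. Without knockout replicate 4 it was -0.89 (limma adjusted p = 0.0276), and over all alternatives the adjusted p ran from 0.0276 to 0.695.

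Cacna2d3 (ENSMUSG00000021991, chromosome 14, 28904943 to 29721864), an alpha2delta subunit of neurons, was at 28.3, 24.8, 12.1 and 17.9 in the controls and at 30.7, 29.8, 24.1, 33.5 and 57.4 in the knockouts. Only knockout replicate 3 lay inside the control range. The log2 change between groups was 0.73 (SE 0.288, limma adjusted p = 0.0608), with a 95% interval of 0.12 to 1.35. It was 0.90 without control replicate 1 (limma adjusted p = 0.0378) and 0.85 without knockout replicate 3 (0.0490), in a range of 0.0330 to 0.187 over all alternatives.

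**Figure D2:**
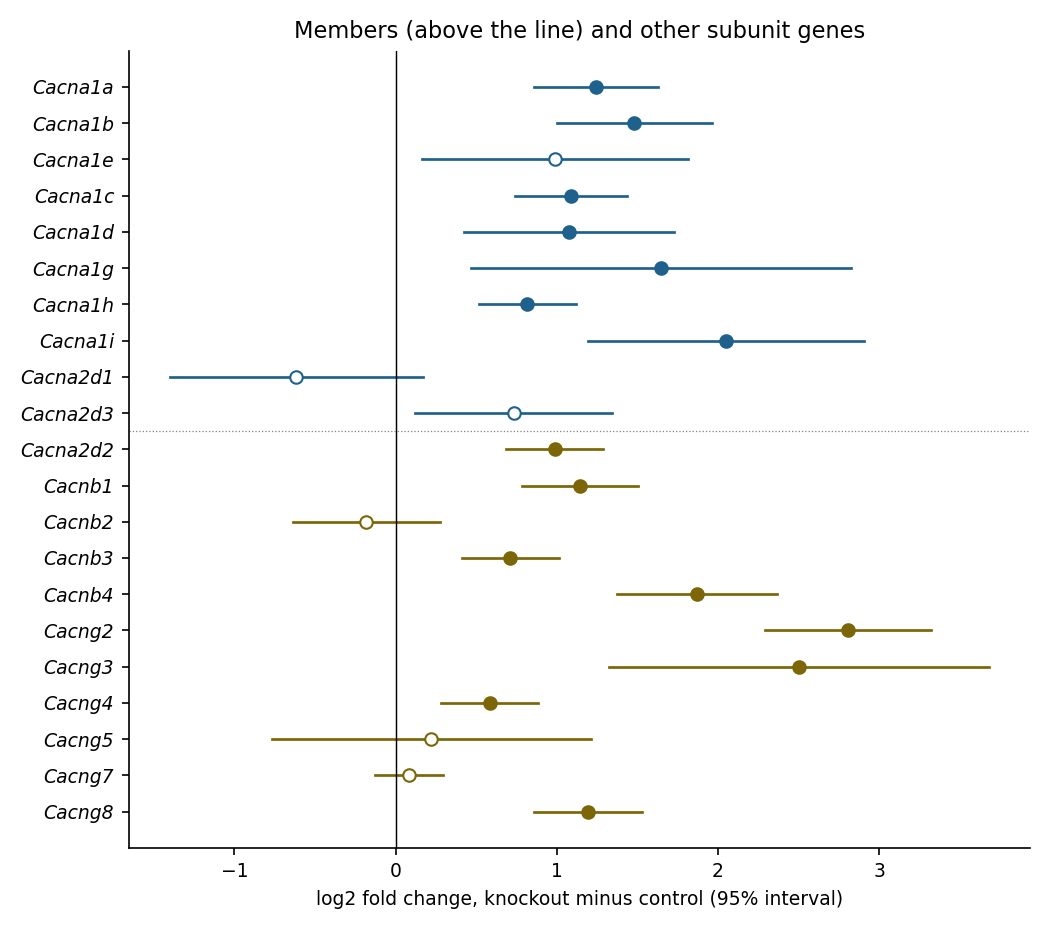
Log2 fold change, knockout minus control on log2(normalized count + 1), with its 95% interval, for the 10 members (above the dotted line) and the 11 other subunit genes that passed the minimum level; filled points have a limma adjusted p under 0.05. All alpha1 genes lie above 0, from 0.82 for Cacna1h to 2.05 for Cacna1i, while Cacna2d1, at -0.62, lies below.

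Levels of different genes were compared per kb of merged exon. Among alpha1 genes in the controls, Cacna1h was highest at 19.8 ± 2.19 normalized counts per kb (SD, n = 4), above each of the others in every control library. Cacna1b followed at 9.48 ± 2.93, Cacna1g at 7.75 ± 4.92 and Cacna1a at 7.37 ± 1.03; the spreads of these 3 overlapped. Cacna1c was at 3.50 ± 0.406, Cacna1e at 1.66 ± 1.03 and Cacna1d at 1.23 ± 0.450, the latter pair within each other's spread, and Cacna1i was lowest at 0.508 ± 0.0861. In the knockouts the first 6 places were the same: Cacna1h 35.4 ± 7.43 per kb (SD, n = 5), Cacna1b 26.1 ± 6.03, Cacna1g 24.4 ± 13.7, Cacna1a 18.0 ± 5.16, Cacna1c 7.60 ± 1.74 and Cacna1e 3.18 ± 1.43. The range of Cacna1h (29.3 to 44.1) overlapped those of Cacna1b (20.3 to 34.9) and Cacna1g (11.7 to 42.7). Cacna1i (2.81 ± 1.79) and Cacna1d (2.73 ± 1.10) were last, and neither differed from Cacna1e beyond the spread. Merged exons of all transcripts were used, so a gene with unused long exons appears lower.

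**Figure D3:**
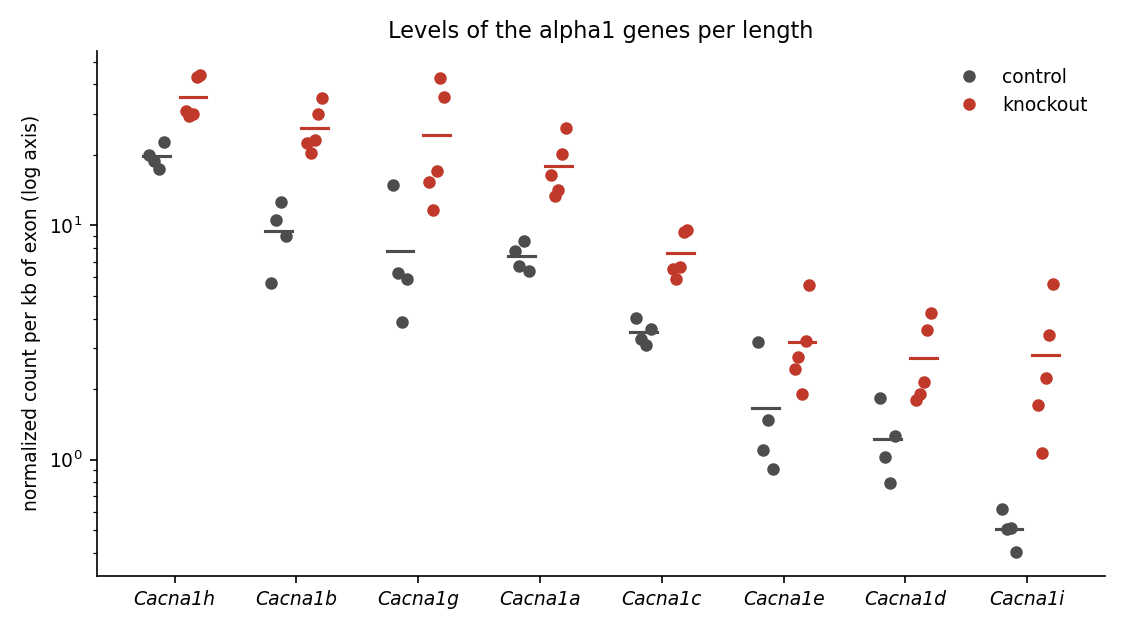
Level of each alpha1 gene per kb of merged exon (normalized counts per kb, log axis) in every library, ordered by the control mean; the short lines are group means. Cacna1h is highest in both groups, at 19.8 in control and 35.4 in knockout, and Cacna1i is lowest in control at 0.508.

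The sum over the 8 alpha1 genes was 48.4 to 58.2 counts per kb in the controls and 86.3 to 165 in the knockouts. The T-type genes made up 54.3% of it in control (45.1% to 61.3%, n = 4) and 51.4% in knockout (48.8% to 57.4%, n = 5), the P/Q-, N- and R-type genes 36.5% ± 7.92 and 39.9% ± 3.29, and the L-type genes 9.17% ± 0.923 and 8.66% ± 0.349. For each class the difference was smaller than the spread between controls, and the class shares of the groups overlapped, while the sums did not. The alpha2delta genes gave another picture: Cacna2d1 held 35.1%, 19.9%, 28.4% and 27.8% of their summed level per kb in control replicates 1 to 4 and 9.10%, 8.91%, 9.84%, 19.3% and 11.1% in knockout replicates 1 to 5. Every knockout share was below every control share, though knockout replicate 4 came close to control replicate 2. Cacna2d2 held 52.3% to 64.3% in control and 70.6% to 79.1% in knockout, and Cacna2d3 8.52% to 15.8% and 10.1% to 17.6%. Cacna2d4 was left out of these shares, at 5.02 normalized counts or fewer in every library.

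Libraries deviated together across members. Knockout replicate 5 was the highest knockout for 8 members and replicate 4 for the other 2, Cacna1g and Cacna2d1; knockout replicate 2 was lowest for 7. Control replicate 1 was the highest control for 7 members and the lowest for 1, Cacna1b. Over the 9 libraries, deviations from the group mean on the log2 scale correlated with a median Pearson r of 0.68 over the 45 pairs of members, from -0.10 (Cacna1b with Cacna1e) to 0.95, with r above 0.5 for 34 pairs. All pairs share the library, its depth and its tissue makeup, so this is a description. Of 10376 genes at a mean of 50 or more, the 3 whose deviations were most like those of Cacna1i over the 9 libraries were Prkar1b (r = 0.97), a neuronal regulatory subunit of protein kinase A, Sv2a (0.96), a synaptic vesicle protein, and Mon1a (0.96). Prkar1b was at 64.8 to 102 normalized counts in the controls and 176 to 540 in the knockouts.

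The other subunit genes of the channel were described with the same fit. Of 16, 5 were under the minimum level (Cacna1f, Cacna1s, Cacna2d4, Cacng1 and Cacng6, whose highest value was 7.05 normalized counts, for Cacng1 in knockout replicate 5). Of the 11 tested, 8 rose, 0 fell and 3 did not pass (limma; 8 and 0 also at an unadjusted p under 0.05), with a median log2 fold change of 0.99. Over all genes tested, 17.2% rose and 17.3% fell. At an unadjusted p under 0.05 (limma), 3014 of 13780 genes were higher and 3143 lower. Every knockout library lay above every control for 8 of the 11, which held for 14.5% of all genes tested. Cacna2d2, the alpha2delta gene with the highest level per kb in both groups, went from 107, 92.4, 81.4 and 84.7 in the controls to 187, 149, 154, 213 and 212 in the knockouts, a log2 fold change of 0.99 (SE 0.142, limma adjusted p = 0.000231).

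Beta subunits, which bind the pore from inside the cell and help it to the membrane, rose for 3 of 4 genes. Cacnb4 had the largest rise of the 4: it was at 55.6, 113, 108 and 54.8 normalized counts in the controls and at 292, 234, 276, 365 and 288 in the knockouts (log2 fold change 1.87, SE 0.228, limma adjusted p = 0.000196). Cacnb1 rose by 1.14 on the log2 scale (limma adjusted p = 0.000279) and Cacnb3 by 0.71 (0.00186). Cacnb2 was at 24.3 to 36.7 in control and 19.1 to 31.6 in knockout and did not pass (log2 fold change -0.18, limma adjusted p = 0.535, 95% interval -0.64 to 0.27). Cacnb3 was the main beta gene per kb, with 83.5% to 84.2% of the summed beta level in control and 72.3% to 79.4% in knockout; the share of Cacnb4 was 3.32% to 5.89% and 6.56% to 11.7%.

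**Figure D4:**
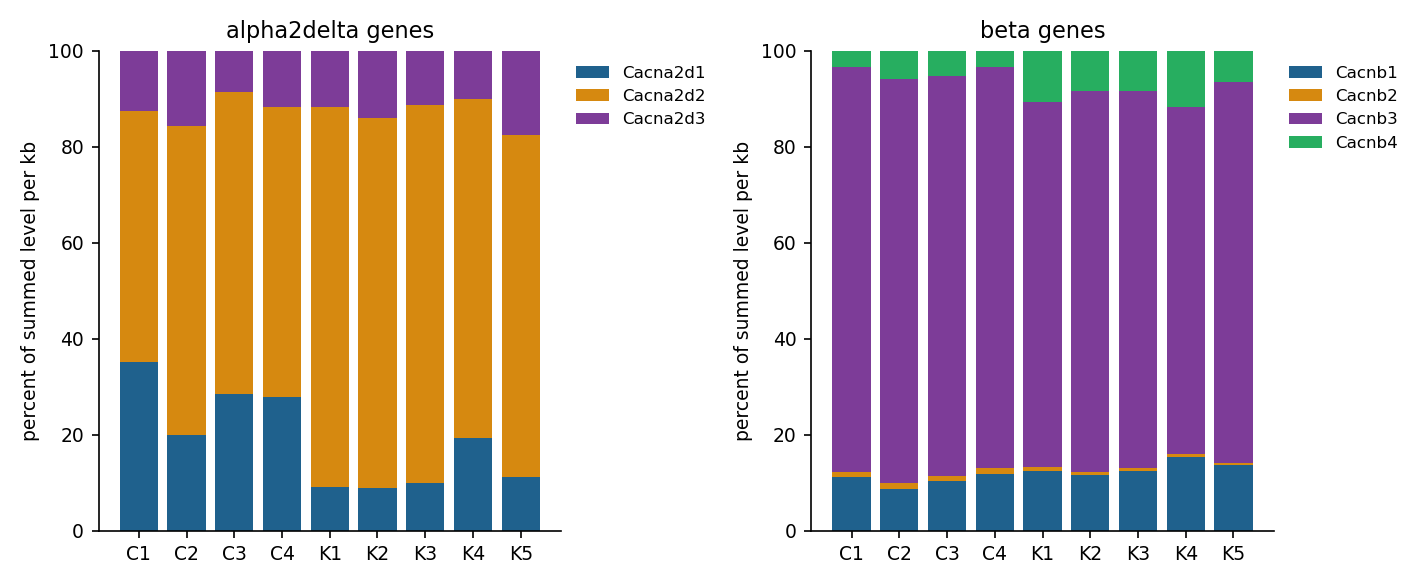
Share of each gene in the summed level per kb of the alpha2delta genes (left) and the beta genes (right), in percent, for control (C) and knockout (K) replicates. Cacna2d1 takes 19.9% to 35.1% of the alpha2delta level in control and 8.91% to 19.3% in knockout, and Cacnb3 is the main beta gene in every library.

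The gamma family includes the auxiliary proteins of AMPA receptors, so its genes bear the calcium channel name without all serving that channel. Cacng2 rose from 24.0 ± 9.08 (SD, n = 4) to 172 ± 45.5 (SD, n = 5) normalized counts (log2 fold change 2.81, SE 0.241, limma adjusted p = 2.25e-05). Cacng3 rose by 2.50 on the log2 scale (limma adjusted p = 0.00557), Cacng8 by 1.20 (0.000139) and Cacng4 by 0.58 (0.00583). When the knockouts were set against control replicates 2 and 3 alone, Cacng4 did not pass (limma adjusted p = 0.0550, in a range of 1.43e-06 to 0.0550 over all alternatives). Cacng7, at 653 to 935 in control and 795 to 846 in knockout, had a log2 fold change of 0.08 with a 95% interval of -0.13 to 0.29. Cacng5, at 2.99 to 18.9 and 5.02 to 16.1, did not pass either (limma adjusted p = 0.739).

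Among regulators of the channels, 7 of 18 tested rose, 2 fell and 9 did not pass, with a median log2 fold change of 0.31. The shares over all genes tested were 17.2% higher and 17.3% lower. The genes that rose with the smallest p were Tspoap1 (log2 fold change 1.19) and Rims1 (1.41), scaffolds that tether channels at the release site, Cbarp (1.45), which restrains the channels through the beta subunit, the calcium sensor Ncs1 (0.49) and Dpysl2 (0.45), a microtubule regulator that binds N-type channels. Rims1 was at 18.2, 16.9, 22.1 and 18.9 normalized counts in the controls and at 28.7, 46.2, 58.2, 61.2 and 80.6 in the knockouts, with no overlap. Fmr1 (-0.43), which encodes an RNA-binding protein and was named after its value was seen, was among those that fell. Leaving out control replicate 4 or knockout replicate 4 left 1 regulator lower.

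Other genes handle calcium after it has entered. Of 18 tested genes of calcium stores and extrusion, 5 rose, 1 fell and 12 did not pass, with a median log2 fold change of 0.02, where 17.2% and 17.3% of all genes tested rose and fell. The plasma membrane pump Atp2b4 rose from 207 ± 37.3 (SD, n = 4) to 398 ± 59.5 (SD, n = 5) (log2 fold change 0.94, limma adjusted p = 0.000229). Atp2b3 (1.95), another pump, Orai2 (0.72), a store-operated channel, Ryr2, a release channel of the endoplasmic reticulum, and Slc8a3 (0.79), a sodium-calcium exchanger, also rose. Atp2b3 and Ryr2 had control means of 4.28 and 4.01, under the minimum level, and were tested only through their knockout means of 16.5 and 19.8; without this pair, 3 genes of the list rose. Ryr2 had limma adjusted p = 0.0506 without control replicate 4 (6.35e-06 to 0.171 over all alternatives), and Slc8a3 had 0.0532 without control replicate 3 (0.0137 to 0.0859). Without knockout replicate 4, Ryr2 was under the minimum level and 3 genes of the list rose. Slc8a2, named after its value was seen, was the gene that fell (-0.38, limma adjusted p = 0.0497), and no gene of the list passed as lower once control replicate 1, 3 or 4 or knockout replicate 1, 3, 4 or 5 was left out.

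Of 16 genes of calcium-dependent signalling, 4 rose, 2 fell and 10 did not pass, with a median log2 fold change of 0.15. Both shares are to be read against the 17.2% higher and 17.3% lower over all genes tested. The calmodulin-binding protein gene Pcp4 fell from 63.7, 44.7, 45.2 and 38.9 normalized counts in the controls to 15.8, 11.5, 18.1, 18.2 and 16.1 in the knockouts (log2 fold change -1.53, SE 0.222, limma adjusted p = 0.000247). The calcineurin-regulated factor gene Nfatc3 fell by 0.46 on the log2 scale. The CREB coactivator gene Crtc1 (0.71), the kinase gene Camkk1 (0.86) and the calcineurin genes Ppp3ca (0.37) and Ppp3r1 (0.23, named after its value was seen) rose. Leaving out control replicate 2 or 4, or knockout replicate 3, 4 or 5, left 2 genes higher; Ppp3ca had limma adjusted p = 0.0574 to 0.0794 when 1 control or knockout replicate 3, 4 or 5 was left out, in a range of 0.00222 to 0.132 over all alternatives.

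Markers of cell state moved beside the channel genes. The 10 pan-neuronal markers (Tubb3, Map2 and Dcx among them) summed to 16741 to 21419 normalized counts in control and 29567 to 37232 in knockout. Of these 10, 7 rose, with a median log2 fold change of 0.84, against 1.17 for the 8 alpha1 members. The 1.17 includes Cacna1i, which was tested only through its knockout level. The shares over all genes tested, for this list and those that follow, were 17.2% higher and 17.3% lower. The 8 radial glia markers summed to 17202 to 22917 and 10895 to 13553, with 5 lower, and the 6 cycling markers to 20116 to 22211 and 7531 to 15504, with 6 lower. Knockout replicate 5, highest for 8 of the members, had the highest pan-neuronal and the lowest cycling sum, and knockout replicate 2, lowest for 7, had the lowest pan-neuronal and the highest cycling sum among knockouts. Knockout replicate 4 followed this order for the cycling sum but not for the pan-neuronal sum. Its alpha1 sum of 155 per kb was above the 97.3 of replicates 1 and 3. Its cycling sum of 10958 was below their 12963 and 11053, but its pan-neuronal sum of 32840 was below their 33097 and 35212. The mean log2 level of the pan-neuronal markers was 10.40 there, against 10.33 in knockout replicate 1 and 10.41 in knockout replicate 3. Cortical markers summed to 285 and 475 in knockout replicates 4 and 5, and to 162, 171 and 146 in knockout replicates 1 to 3. Choroid plexus markers summed to 719 and 477 in knockout replicates 4 and 5, and to 151, 495 and 181 in knockout replicates 1 to 3. The part of these shifts in the channel genes was not tested. The 8 markers of vessel wall cells summed to 1215 to 1688 in control and 1455 to 1880 in knockout. Of these, 0 of 8 passed the test (limma, also 0 at an unadjusted p under 0.05). At that unadjusted p, 3014 of all 13780 genes tested were higher and 3143 lower. Microglial markers summed to 135 to 197 and 85.3 to 169, and erythroid markers to 2089 to 10254 and 2575 to 6029. No tested microglial or erythroid marker passed. Oligodendrocyte precursor markers summed to 205 to 287 and 230 to 408, with 1 of 4 higher. MGE markers summed to 18320 to 31181 and 28508 to 36100, with 5 of 8 higher. The MGE markers that did not pass were Nkx2-1 (log2 fold change -0.36, limma adjusted p = 0.0706), Lhx8 (-0.13) and Dlx2 (0.13).

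**Figure D5:**
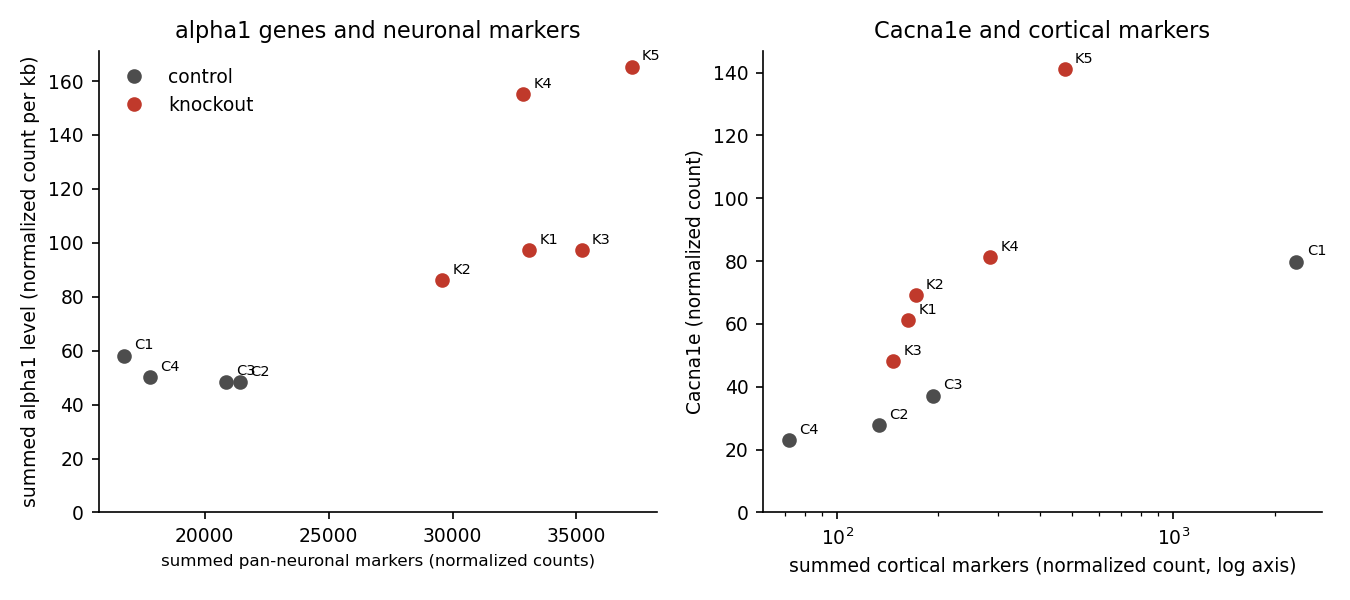
Left, summed level of the 8 alpha1 genes (normalized counts per kb) against the sum of 10 pan-neuronal markers (normalized counts) in each library; right, Cacna1e (normalized counts) against the sum of 8 cortical markers (normalized counts, log axis). C is control and K is knockout. Knockouts 4 and 5 have alpha1 sums of 155 and 165 against 86.3 to 97.3 in the other knockouts, and control replicate 1 lies alone at a cortical sum of 2320.

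Exons of 3 members overlap those of other genes. Merged exons of Cacna1a share 435 bases with the antisense gene Gm16183, those of Cacna1d share 589 with Chdh and those of Cacna1h share 158 with Tpsg1; these neighbours had means of 1.96, 2.08 and 0.443 normalized counts. Whether counting used strand is not stated, so reads in those shared stretches cannot be assigned to one strand.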

How the data were processed

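The authors deposited a normalized signal for each gene. It was read as reads over a library's size factor (0.989 to 1.05), since 100% of values above 0 lay within 0.01 of a whole multiple of 1 step. For most libraries that step is so close to 1 that whole reads could not be established, so the reads and library totals given are estimates. The submitters' processing notes list mm10, DESeq2, TopHat2 2.1.1, HTSeq 0.9.1 and R 3.4.0; what each did, and the annotation, are not given. The values were treated as normalized and tested on a log scale, with no count model.

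A symbol was matched for 48058 of the 48526 identifiers. Values were taken as log2(normalized count + 1), genes with a mean under 10 were left out, and the remaining 13780 were fitted with limma 3.58.1 (trend, robust, statmod 1.5.0, R 4.3.3; two-sided tests, Benjamini-Hochberg adjusted, threshold 0.05). The script was tested on simulated data, in which 50 genes each were changed by 2, 1, -1 and -2 on the log2 scale. It recovered 100%, 84%, 82% and 88% of these, with 13 false calls among 190 calls. Far fewer genes were changed there than were called in the real data. Positions and merged exons are from GENCODE M21. The 10 members, the gene lists and the use of control replicates 2 and 3 as the only controls were chosen with earlier results of these data known. Named were Ctnnb1, the members, all other subunit genes, up to 5 genes past the threshold with the smallest p in each further list, and the 3 genes most like the member with the largest change; 1 gene of the regulator list is not reported here by name. Alternatives were pseudocounts of 0.5 and 8, other filters, scalings and variance models, a replicate block, each library left out, those 2 controls only, and a loess correction for exonic length and GC content (span 0.5).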

Additional observations from a re-analysis of the deposited data

Results flagged for a closer look

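Of 84 groups of libraries examined (42 named genes, control and knockout), 3 held 1 library far from the others by Dixon's test at 95%; chance gives about 5% of groups. All 3 were knockout replicate 5. Cacna2d3 was at 57.4 normalized counts there and at 24.1 to 33.5 in the other knockouts. Cacng3 was at 132 there and at 71.2 to 87.5 in the others. Cacng1 was at 7.05 there and at no more than about 1 read in the others.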

How the results depend on the processing

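The number of members that rose was 6 to 9 under all 20 alternatives, and Cacna1a, Cacna1b, Cacna1c, Cacna1d, Cacna1h and Cacna1i passed in each fit in which they were tested (a minimum mean of 50 left out Cacna1d, Cacna1i and Cacna2d3). No member changed direction. Among all genes, control replicates 2 and 3 as the only controls gave 1387 higher and 1112 lower. Against these 2 controls Cacna1e passed (1.19, limma adjusted p = 0.0364). It also passed without a filter and with a minimum mean of 50 (0.99 in both) and with library quality weights (0.97). The left-out fits gave 0.76 to 1.35. Without a filter the SE of Cacna1e was 0.213, against 0.375 in the main fit, at the same log2 fold change. The fit without a filter also gave the lowest adjusted p quoted for Cacna1e, Cacna1h and Ryr2. Cacna1g did not pass without a filter (1.65), or after the length and GC correction (1.38, adjusted p = 0.0615), with 1.38 to 2.02 in the left-out fits. Without a filter Cacna2d1 (-0.62, adjusted p = 0.0288) and Cacna2d3 (0.73) passed, so 1 member fell; Cacna2d3 also passed with quality weights (0.77). The left-out fits gave -0.89 to -0.35 for Cacna2d1, 0.51 to 0.90 for Cacna2d3 and 0 to 1 members lower. The cause of these differences was not tested.

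Of the other lists, channel regulators had 4 higher with a minimum mean of 50 and 1 lower without trend and robust, with quality weights, and against control replicates 2 and 3 (1 to 2 in the left-out fits). Stores and extrusion had 2 higher with a minimum mean of 50 and against those 2 controls (3 to 5 left out), 0 lower without a filter, without trend and robust, with quality weights and against those controls, and 4 lower after the length and GC correction (0 to 1 left out). Calcium-dependent signalling had 2 higher without trend and robust and 1 against those controls (2 to 5 left out), and 1 lower with a minimum mean of 50 and against those controls. Cacng5 changed direction without control replicate 4 (-0.26) and against control replicates 2 and 3 (-0.22), and Cacng7 against those controls (-0.069) and after the correction (-0.056); neither passed anywhere. With those controls as the only ones, 7 of the other subunit genes rose, and Cacng4 (adjusted p = 0.0550), Orai2 (0.0670), Crtc1 (0.0772), Camkk1 (0.0869) and Nfatc3 (0.0563) did not pass; each of these 5 passed under every other alternative in which it was tested.

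Deviations of same-numbered libraries correlated at -0.12, -0.09, 0.14 and -0.04. These values give no sign that the shared replicate numbers pair the libraries, but so few libraries cannot decide it. With the replicate block, which leaves knockout replicate 5 without a partner, Cacna1g was at 1.47 (adjusted p = 0.160), 1 regulator fell, 3 genes of stores and extrusion rose and 0 fell, and 2 signalling genes rose. Across all genes, 1829 rose and 1681 fell. Depth limits Cacna1i and Cacna1d most, at 3.99 to 6.06 and 10.05 to 23.2 normalized counts in the controls.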
